A study of Homo sapiens with 10 samples.

Results

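Collagen chain genes were followed in SRA01-04 cells, an immortalised line derived from human lens epithelium. The family was taken as every gene whose symbol reads COL, a type number, A and a chain number, which gave 25 of the 12540 genes in the count table. The OE group had been transfected with a plasmid for RORα, a nuclear receptor (gene RORA), and the EV group with the empty plasmid (5 libraries each, OE1 to OE5 and EV1 to EV5). From 48 h after transfection both groups were given 10 µM of the oxidising salt selenite for 24 h. All values therefore come from transfected, selenite-treated cells of 1 line. The promoter driving the RORα plasmid and the share of cells that took it up are not given in the sources used here, nor is it stated that replicates came from separate cultures, so p-values measure only the spread between these libraries, which may be technical.

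Library totals ran from 17475342 to 21956761 counts, which makes 3 counts equal to 0.137 to 0.172 CPM (read counts scaled to a common library total after TMM adjustment). This floor covers counting error only. RORA averaged 41.3 ± 2.21 CPM in OE libraries and 14.99 ± 2.29 CPM in EV libraries (SD, n = 5 each), a 2.74-fold difference that separated the groups without overlap (edgeR adjusted p = 4.36e-20). The table held 6 of 17 lens markers, whose summed level was 39.3 to 45.2 CPM in OE libraries and 40.3 to 45.3 CPM in EV libraries. The lens transcription factor PAX6 was present at 20.9 CPM in OE and 19.6 CPM in EV cells. Of the 6 markers, 2 fell, where 27.5% of all genes tested were called lower. The small heat shock crystallin CRYAB, with 36 counts over the OE libraries, fell to 0.370 CPM in OE, against 1.43 CPM in EV cells (edgeR adjusted p = 3.17e-06). The lens filament gene BFSP1 fell to 4.803 CPM in OE, against 7.51 CPM in EV cells (1.21e-05). The other 4 did not pass, and FOXE3, CRYAA and MIP were not analysed here. In bulk RNA, fewer expressing cells and less RNA per cell cannot be told apart.

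Collagens are secreted or membrane proteins built from 3 chains wound into a triple helix. Fibrillar collagens form banded fibrils, type IV forms the sheet of basement membranes, type VI forms beaded microfilaments, FACIT collagens sit on fibril surfaces, and transmembrane collagens stay anchored in the cell. The lens is wrapped in a capsule, a thick basement membrane made by its epithelium and rich in type IV collagen. Lens epithelial cells that turn into fibroblast-like cells in some cataracts are known for making the fibrillar types I and III.

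Most collagen chains were lower with RORα overexpression, and the tested chains with the largest falls were fibrillar. COL3A1 fell 13.0-fold, COL5A3 5.26-fold, COL1A2 4.10-fold and COL1A1 2.83-fold. The chains that rose were of another kind: the transmembrane collagens COL13A1 and COL17A1 and the minor type IV chains COL4A4 and COL4A6. Among the 24 members that were tested, 4 rose and 16 fell, and the other 4 did not pass (edgeR quasi-likelihood test, Benjamini-Hochberg over 12520 genes, threshold 0.05). Over all genes tested, 28.6% were called higher and 27.5% lower. A fall of at least 2-fold was called for 6 members, against 1.74% of all genes. The median log2 fold change was -0.48 over the members and 0.00 over all genes. All 5 OE libraries lay above all 5 EV libraries for 4 members and below them for 15, where 20.8% of all genes were separated upward and 18.9% downward.

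**Figure D1:**
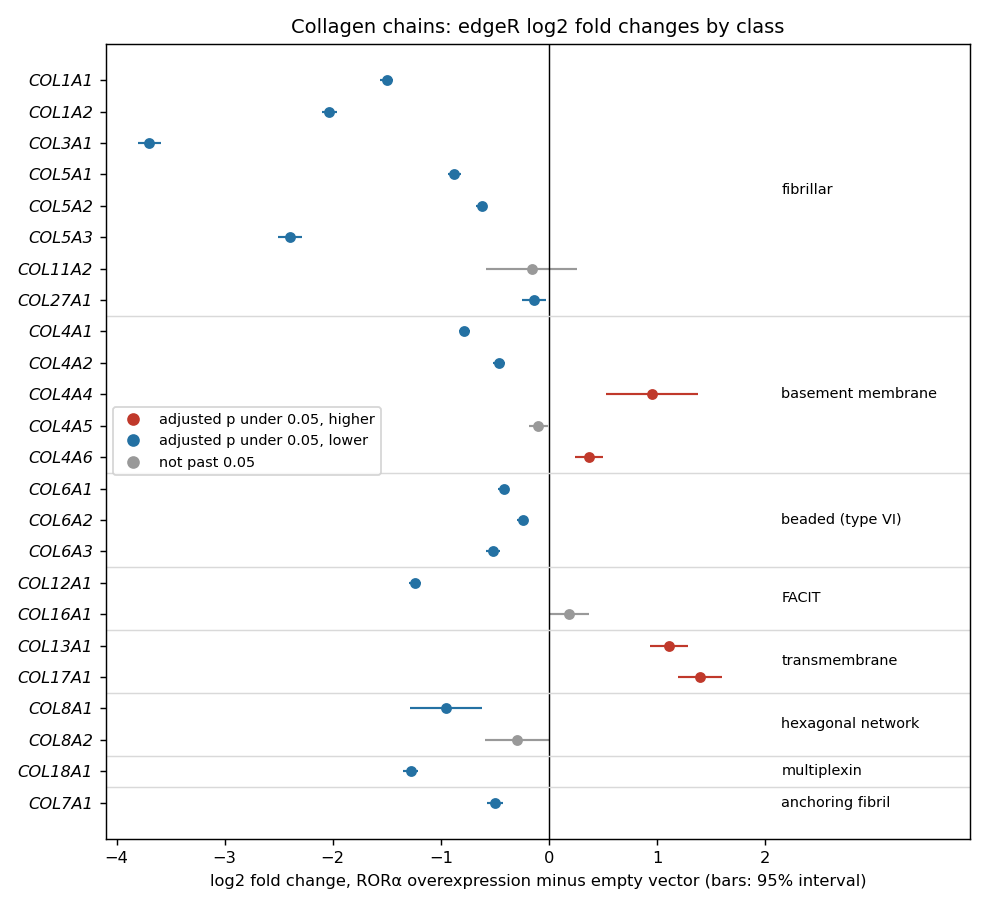
The log2 fold change of each of the 24 tested chains, OE minus EV, with 95% intervals and grouped by class. Fibrillar COL3A1 lies farthest to the left at -3.70, and both transmembrane chains lie to the right of 0.

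Taken as a pool, the 25 members summed to 8509 ± 229 CPM in OE libraries and 13905 ± 335 CPM in EV libraries (SD, n = 5 each), a 1.63-fold lower sum. Collagen reads made up 0.833% to 0.889% of counts in OE libraries and 1.36% to 1.43% in EV libraries. The make-up of the pool also differed. Fibrillar chains held 27.4% to 28.1% of collagen CPM in OE libraries and 37.5% to 37.8% in EV libraries. Type VI chains held 48.5% to 49.4% in OE libraries and 37.6% to 38.4% in EV libraries, although their own sum was 1.27-fold lower in OE libraries. Type IV chains held 14.8% to 14.9% and 13.2% to 13.5% of the OE and EV pools. Types I and III alone took 10.4% to 11.2% of the OE pool and 19.6% to 20.3% of the EV pool. These sums are descriptions without a test, and long transcripts weigh more in them than short ones.

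**Figure D2:**
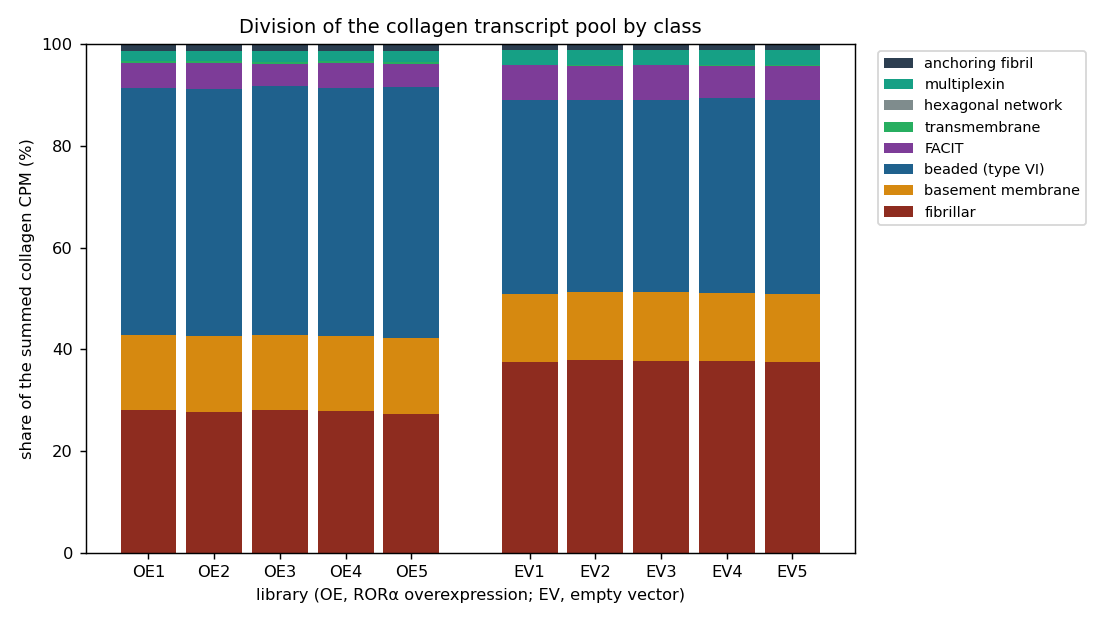
Share of summed collagen CPM (%) held by each class in each library, OE libraries on the left and EV libraries on the right. The fibrillar block is near 28% of each OE bar and near 38% of each EV bar, and the libraries of a group hardly differ.

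Fibrillar chains were represented by 8 of 11 known genes, of which 7 fell, 4 of them at least 2-fold, and 1 did not pass. Their median log2 fold change was -1.19. COL1A1 and COL1A2 encode the chains of type I collagen, the main fibril of skin, bone and scar. COL1A1 (GRCh38, GENCODE 29, chr17:50183289-50201632, minus strand) was at 815, 786, 905, 812 and 825 CPM in OE1 to OE5, against 2302, 2293, 2300.1, 2500.0 and 2338 CPM in EV1 to EV5. The lowest EV library stood well over the highest OE library. The log2 fold change was -1.50 ± 0.03 (SE, adjusted p = 2.17e-33). COL1A2 (chr7:94394561-94431232, plus strand) was at 72.8, 76.4, 79.0, 70.5 and 72.2 CPM in OE1 to OE5, against 299.7, 299, 303, 314 and 303 CPM in EV1 to EV5. The groups were again far apart, by -2.03 ± 0.04 on the log2 scale (SE, adjusted p = 3.6e-35).

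Type III collagen, a homotrimer of the COL3A1 chain, accompanies type I in distensible tissues and early scars. COL3A1 (chr2:188974320-189012746, plus strand) was at 9.62, 8.75, 8.48, 8.11 and 9.59 CPM in OE1 to OE5, against 116, 118, 114, 113 and 119.6 CPM in EV1 to EV5. The OE libraries were all far below the EV libraries and close to each other. The log2 fold change of -3.70 ± 0.05 (SE, adjusted p = 8.78e-38) ranked 2 of 12520 from the lowest.

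Type V collagen is a quantitatively minor fibrillar type that starts type I fibrils and sets their diameter. COL5A3 (chr19:9959561-10010471, minus strand), its least common chain in most tissues, was at 19.98, 18.2, 22.6, 19.3 and 21.98 CPM in OE1 to OE5, against 93.3, 111, 114, 108 and 110.1 CPM in EV1 to EV5. EV1 was the lowest EV library and still far over the OE range. Its log2 fold change was -2.40 ± 0.06 (SE, adjusted p = 6.58e-31), rank 22 from the lowest of all genes. The common chains moved less. COL5A1 (chr9:134641774-134844843, plus strand) averaged 579 ± 22.8 CPM in OE libraries and 1063 ± 51.9 CPM in EV libraries (SD, n = 5 each), a log2 fold change of -0.88 ± 0.03 (SE, adjusted p = 3.3e-25). COL5A2 (chr2:189031896-189225312, minus strand) averaged 819 ± 12.3 CPM and 1262 ± 31.6 CPM in OE and EV libraries, and differed by -0.62 ± 0.03 on the log2 scale (SE, adjusted p = 3.85e-23). COL3A1 and COL5A2 are neighbours that converge on each other with 19149 bases between them, and their changes differed widely in size.

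The remaining fibrillar chains changed little. COL27A1, a chain of developing cartilage, averaged 34.9 ± 2.14 CPM in OE libraries and 38.4 ± 1.79 CPM in EV libraries with overlapping ranges. Its log2 fold change was -0.14 ± 0.05 (SE, adjusted p = 0.0296). That call was lost without OE4 (adjusted p = 0.0762), OE5 (0.0987), EV3 (0.0563), EV4 (0.0698) or EV5 (0.0659). COL11A2, a chain of cartilage fibrils, was low at 1.51 to 2.46 CPM in OE libraries and 1.36 to 3.09 CPM in EV libraries. The interval of its log2 fold change ran from -0.58 to 0.26 (adjusted p = 0.541). COL2A1, COL11A1 and COL24A1 were not analysed here.

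Markers of fibroblasts other than collagens were also lower. All 6 of the 11 listed that were in the table fell, with a median log2 fold change of -1.21. Over all genes tested, 28.6% were called higher and 27.5% lower, with a median of 0.00. The summed level of the 6 was 168 to 179 CPM in OE libraries and 398 to 421 CPM in EV libraries. The defining fibroblast proteoglycans DCN and LUM were not analysed here. The epithelial keratins KRT8 and KRT18, 2 of 5 listed markers of other epithelium, fell too. KRT8 fell to 264 CPM in OE libraries, against 904 CPM in EV libraries, and KRT18 to 69.6 CPM, against 242 CPM. The table also held 2 of 8 endothelial markers, summing to 9.96 to 12.3 CPM in OE and 17.2 to 19.8 CPM in EV libraries, and 2 of 8 immune markers, summing to 2.16 to 3.12 CPM in OE and 4.09 to 5.70 CPM in EV libraries. Both endothelial markers fell, and of the immune markers 1 fell and 1 did not pass. Of 2 pigment epithelium or retina markers, BEST1 rose to 4.76 CPM in OE, against 2.51 CPM in EV cells, and MITF did not pass, with a sum of 14.4 to 16.7 CPM in OE and 12.8 to 14.8 CPM in EV libraries. The 1 corneal marker in the table, KRT3, fell to 0.367 CPM in OE, against 2.67 CPM in EV cells. Apart from the fibroblast list, these lists held only 1 or 2 genes each, too few to set against the shares over all genes. The part of the markers in this paragraph in the collagen result was not tested.

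**Figure D3:**
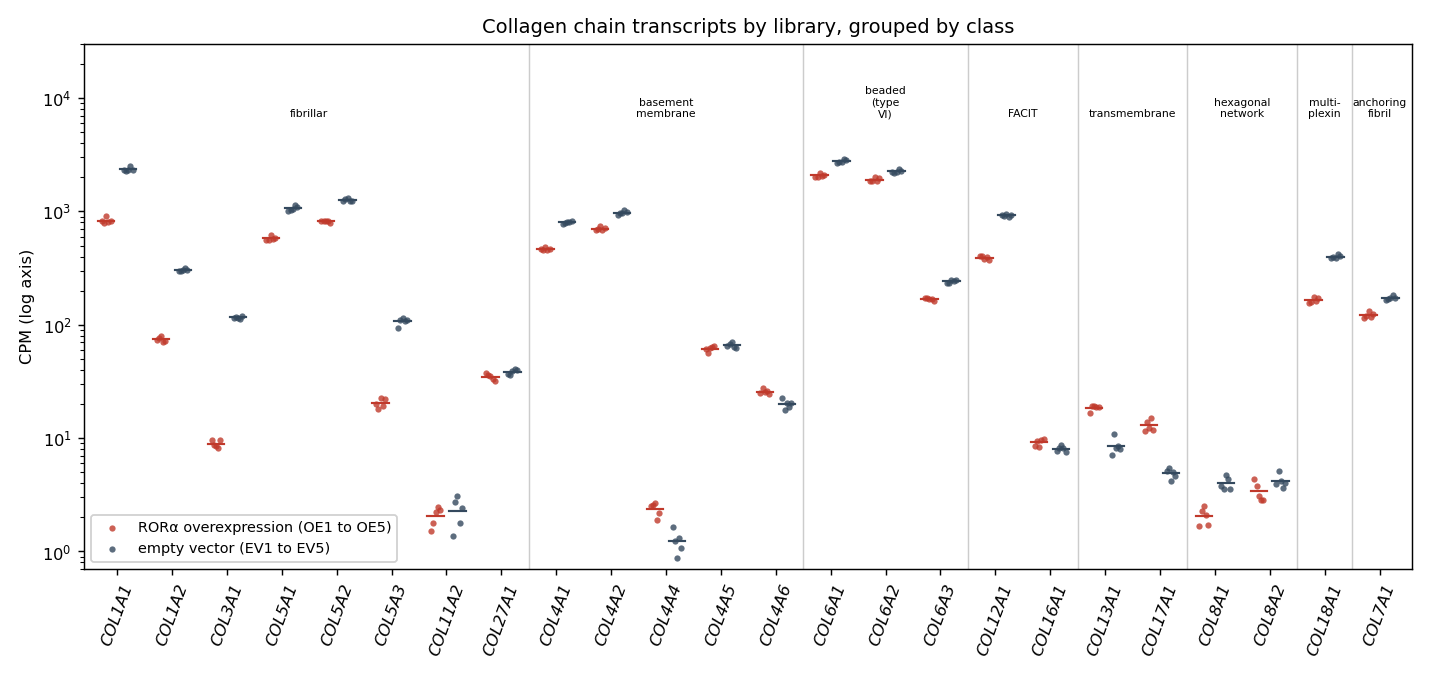
CPM of each tested chain in every library on a log axis, OE libraries in red to the left of EV libraries in dark blue, with lines at the group means. The fibrillar chains COL1A1 to COL5A3 and the transmembrane chains show clear gaps in opposite directions. COL4A1, COL12A1 and COL18A1 also show clear downward gaps, and COL11A2, COL27A1, COL4A5, COL16A1 and COL8A2 overlap.

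Basement membrane collagen is type IV, whose chains assemble as COL4A1 with COL4A2, COL4A3 with COL4A4 and COL4A5, or COL4A5 with COL4A6. Of the 5 chains in the table, both common chains fell, COL4A4 and COL4A6 rose and COL4A5 did not pass. COL4A1 (chr13:110148963-110307233, minus strand) was at 463, 460.4, 485, 459.7 and 462 CPM in OE1 to OE5, against 778, 797, 805, 807 and 822 CPM in EV1 to EV5. COL4A2 (chr13:110305812-110513209, plus strand) was at 684, 698, 741, 691 and 715 CPM in OE1 to OE5, against 923, 965, 976, 1021 and 982 CPM in EV1 to EV5. Neither chain overlapped between groups, and the fall was steeper for COL4A1. The log2 fold changes were -0.78 ± 0.03 for COL4A1 (SE, adjusted p = 1.63e-25) and -0.46 ± 0.03 for COL4A2 (SE, adjusted p = 2.23e-17).

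COL4A6 (chrX:108155607-108439497, minus strand), found in the basement membranes of selected epithelia and smooth muscle, was at 25.2, 27.9, 25.7, 25.9 and 24.3 CPM in OE1 to OE5, against 22.4, 17.8, 20.3, 18.8 and 20.4 CPM in EV1 to EV5. Its lowest OE library was just over its highest EV library. The log2 fold change was 0.37 ± 0.07 (SE, adjusted p = 1.01e-05). Its head-to-head neighbour COL4A5 (chrX:108439844-108697545, plus strand) averaged 61.7 ± 3.30 CPM in OE and 65.9 ± 3.08 CPM in EV libraries (SD, n = 5 each) with overlap, and the interval of its log2 fold change ran from -0.19 to -0.01 (adjusted p = 0.0672). It passed without OE5 (adjusted p = 0.0365) and without EV5 (0.0431). COL4A4, known from the kidney filter and part of the lens capsule, was low at 2.51, 2.59, 2.68, 1.88 and 2.18 CPM in OE1 to OE5, against 1.63, 1.246, 0.884, 1.31 and 1.07 CPM in EV1 to EV5. It rose 1.94-fold (adjusted p = 0.00027). COL4A3 was not analysed here.

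COL4A1 and COL4A2 are transcribed in opposite directions from a shared stretch. The 126 bases between their RefSeq starts (GRCh38.p14, chr13:110307158-110307283, plus strand) are shown because both falling chains start at its ends, with capitals on the letters CCAAT and GGGCGG.
COL4A1-COL4A2: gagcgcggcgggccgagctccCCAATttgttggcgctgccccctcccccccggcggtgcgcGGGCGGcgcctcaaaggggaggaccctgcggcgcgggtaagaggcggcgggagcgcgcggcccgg
The chains on either side of this stretch differed in the size of their fall, which the count ratios given further on also show.

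Type VI collagen links cells to the surrounding matrix and held the most abundant collagen transcripts per length in both groups. All 3 chains in the table fell, each by less than 2-fold. COL6A1 (chr21:45981737-46005050, plus strand) was at 2031, 2026, 2181, 2062 and 2103 CPM in OE1 to OE5, against 2695, 2730.4, 2732, 2917 and 2835 CPM in EV1 to EV5, a log2 fold change of -0.42 ± 0.03 (SE, adjusted p = 1.32e-17). COL6A2 (chr21:46098097-46132849, plus strand), which lies 93046 bases after COL6A1, was at 1846, 1867, 1992, 1866 and 1967 CPM in OE1 to OE5, against 2245, 2177, 2223, 2379 and 2255 CPM in EV1 to EV5, a log2 fold change of -0.24 ± 0.03 (SE, adjusted p = 2.13e-10). The COL6A2 groups stayed apart even at this small difference. COL6A3, the long chain needed to complete the trimer, averaged 169 ± 3.81 CPM in OE libraries and 242 ± 7.31 CPM in EV libraries (SD, n = 5 each; log2 fold change -0.52 ± 0.03, adjusted p = 6.38e-17). COL6A5 and COL6A6 were not analysed here.

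FACIT collagens were represented by 3 of 10 genes. COL12A1 (chr6:75084326-75206051, minus strand), which decorates type I fibrils, was at 400.3, 406, 382, 393 and 374 CPM in OE1 to OE5, against 925, 919, 942, 898 and 926 CPM in EV1 to EV5. The OE level was below the EV level in every library, with a log2 fold change of -1.24 ± 0.03 (SE, adjusted p = 8.89e-32). COL14A1, which also binds fibril surfaces, was below the count filter and was not part of the main test. It had 6, 1, 2, 0 and 0 counts in OE1 to OE5, against 9, 12, 21, 21 and 16 counts in EV1 to EV5. The groups did not overlap, and the OE over EV ratio of depth-scaled counts was 0.111 (95% exact interval 0.0488 to 0.221, counting error only). With no count filter its edgeR adjusted p was 6.77e-06. COL16A1, a minor fibril-associated chain, averaged 9.17 ± 0.667 CPM in OE and 8.06 ± 0.432 CPM in EV libraries (SD, n = 5 each) with overlap, and did not pass (log2 fold change 0.18, adjusted p = 0.0964).

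Transmembrane collagens moved the other way. COL13A1, found at cell adhesions and neuromuscular junctions, and COL17A1, the hemidesmosome collagen that anchors epithelial cells to the basement membrane, both rose. COL13A1 (chr10:69801867-69964275, plus strand) was at 16.5, 19.2, 19.2, 18.8 and 18.8 CPM in OE1 to OE5, against 7.06, 10.9, 8.20, 8.57 and 7.97 CPM in EV1 to EV5. COL17A1 (chr10:104031286-104085957, minus strand) was at 11.6, 13.8, 12.4, 14.96 and 11.9 CPM in OE1 to OE5, against 5.16, 5.48, 4.17, 5.03 and 4.60 CPM in EV1 to EV5. Every OE library exceeded every EV library for both genes. The log2 fold changes were 1.11 ± 0.09 for COL13A1 (SE, adjusted p = 1.46e-13) and 1.40 ± 0.10 for COL17A1 (SE, adjusted p = 1.06e-14). Their summed level, 31.4 ± 2.21 CPM in OE and 13.4 ± 1.72 CPM in EV libraries (SD, n = 5 each), was under 1% of the collagen pool in every library. COL23A1 and COL25A1 were not analysed here.

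The remaining classes fell or did not pass. COL18A1 (chr21:45405137-45513720, plus strand), the basement membrane proteoglycan whose end piece is endostatin, was at 157, 158, 176, 161 and 173 CPM in OE1 to OE5, against 388, 398, 389, 419.6 and 406 CPM in EV1 to EV5. The groups were clearly separated (log2 fold change -1.28 ± 0.03, SE, adjusted p = 4.69e-29). Of its exon bases 16.4% are shared with SLC19A1 on the opposite strand, and the labels name no step that marks the strand. SLC19A1 itself averaged 132 ± 5.67 CPM in OE and 155 ± 7.50 CPM in EV libraries (SD, n = 5 each). COL7A1 (chr3:48564073-48595267, minus strand), the anchoring fibril chain of skin, was at 116, 120.1, 131, 116 and 124 CPM in OE1 to OE5, against 164, 168, 173, 181 and 173 CPM in EV1 to EV5, a log2 fold change of -0.50 ± 0.04 (SE, adjusted p = 1.34e-14).

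Type VIII collagen forms hexagonal sheets, best known from the corneal endothelium's basement membrane. COL8A1 was at 1.69, 2.26, 2.52, 2.11 and 1.73 CPM in OE1 to OE5, against 3.75, 3.54, 4.71, 4.34 and 3.58 CPM in EV1 to EV5, and fell 1.94-fold (adjusted p = 8.53e-06). COL8A2 averaged 3.39 ± 0.680 CPM in OE and 4.17 ± 0.548 CPM in EV libraries (SD, n = 5 each) with overlap. The interval of its log2 fold change ran from -0.59 to 0.01 (adjusted p = 0.105), and it passed without OE1 (adjusted p = 0.0317).

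The promoters of 2 chains that fell over 2-fold, fibrillar COL5A3 and the FACIT chain COL12A1, are shown beside those of both rising transmembrane chains, as the 250 bases before each RefSeq start (GRCh38.p14). Capitals mark the letters TATAAA of the TATA box, the CCAAT box, the GC box letters GGGCGG and the receptor core GGGTCA. Matches were marked on either strand and at any distance from the start, and their positions were not assessed. A match on the opposite strand appears as its reverse complement.
COL5A3, chr19:10010505-10010754, minus strand: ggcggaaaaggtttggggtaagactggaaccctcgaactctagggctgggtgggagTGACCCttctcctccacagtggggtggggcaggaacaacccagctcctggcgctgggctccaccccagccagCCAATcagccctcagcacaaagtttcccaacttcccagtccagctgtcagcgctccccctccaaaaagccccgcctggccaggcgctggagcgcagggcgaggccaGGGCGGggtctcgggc
COL12A1, chr6:75206054-75206303, minus strand: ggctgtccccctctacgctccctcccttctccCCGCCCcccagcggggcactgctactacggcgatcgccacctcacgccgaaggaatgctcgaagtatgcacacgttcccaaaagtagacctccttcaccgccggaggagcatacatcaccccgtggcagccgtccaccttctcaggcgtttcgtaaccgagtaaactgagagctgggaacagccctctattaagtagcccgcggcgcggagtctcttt
COL17A1, chr10:104085881-104086130, minus strand: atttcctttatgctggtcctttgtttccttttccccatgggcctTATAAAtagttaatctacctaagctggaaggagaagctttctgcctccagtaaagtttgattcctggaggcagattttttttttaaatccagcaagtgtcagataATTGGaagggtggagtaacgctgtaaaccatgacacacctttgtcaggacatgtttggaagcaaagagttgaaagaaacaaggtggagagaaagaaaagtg
COL13A1, chr10:69801656-69801905, plus strand: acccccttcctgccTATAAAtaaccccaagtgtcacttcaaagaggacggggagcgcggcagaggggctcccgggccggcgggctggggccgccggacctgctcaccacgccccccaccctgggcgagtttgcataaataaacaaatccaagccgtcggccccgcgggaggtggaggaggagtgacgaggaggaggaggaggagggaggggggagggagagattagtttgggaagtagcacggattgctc
Both rising transmembrane chains hold TATAAA here and neither falling chain shown does, a contrast that depends on which promoters were shown. The windows of the other rising chains, COL4A4 and COL4A6, do not hold it. The promoter set used here held 24 windows of 18 members. Of these windows, 5 held TATAAA (20.8%), against 10.7% of all 35116 windows in the set. The holders included the falling COL6A2, COL7A1 and COL18A1. CCAAT was in 7 member windows (29.2%) and 32.0% of all windows. GGGCGG, a GC box that Sp1 binds, was in 16 member windows (66.7%) and 42.6% of all windows, with a median GC content of 65.2% in member windows and 58% in all windows. AGGTCA, the core of the element that RORα binds, was in 1 member window, that of COL7A1 (4.17%), and in 12.1% of all windows. GGGTCA, a related core, was in 5 member windows (20.8%) and 12.1% of all windows. The letters TGANTCA of AP-1 were in 0 member windows and 6.57% of all windows, and the NF-kB motif in 1 (4.17%) and 1.73%. Both strands were searched, AGGTCA and GGGTCA differ in their initial letter so no match counts for both, and a match is a description of letters only. Some member windows overlap, as those of COL5A1 and those of COL4A1 and COL4A2, so 1 site can count in more than 1 window. COL1A1, COL1A2, COL3A1, COL5A2, COL6A1, COL8A1 and COL14A1 had no entry in the promoter set used here and are named only. The window shares therefore leave out COL3A1, COL1A2 and COL1A1, which were among the steepest falls.

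Transcripts of several chains that share a trimer did not change in proportion. COL4A1 with COL4A5, COL3A1 with COL5A2 and COL1A1 with COL3A1, compared as well, are not partners in a trimer. Ratios of counts within each library remove depth, and 10 pairs could be compared by exact two-sided permutation tests, for which the smallest possible p is 0.00794. COL1A1 over COL1A2 was 11.2, 10.3, 11.5, 11.5 and 11.4 in OE1 to OE5, against 7.68, 7.67, 7.59, 7.96 and 7.71 in EV1 to EV5. The OE ratios were all higher (log2 difference 0.53, exact permutation p = 0.00794, 0.00992 adjusted over the 10 pairs). Type I collagen is mostly a trimer of COL1A1 and COL1A2 chains in a ratio set by protein assembly, so these transcript ratios, which also depend on length, are not chain ratios.

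COL4A1 over COL4A2 averaged 0.661 ± 0.0121 in OE libraries and 0.824 ± 0.0204 in EV libraries (SD, n = 5 each), a log2 difference of -0.32. COL6A1 over COL6A2 averaged 1.09 ± 0.0143 and 1.23 ± 0.0232 in OE and EV libraries, a difference of -0.18. COL5A1 over COL5A2 averaged 0.707 ± 0.0306 and 0.843 ± 0.0548 in OE and EV libraries, a difference of -0.25. In all 3 the chain named ahead fell more. COL4A1 over COL4A5 averaged 7.58 ± 0.415 in OE libraries and 12.2 ± 0.676 in EV libraries (-0.69), and COL4A5 over COL4A6 averaged 2.40 ± 0.238 and 3.33 ± 0.369 (-0.47), so the transcripts leaned toward the minor type IV chains. Among fibrillar genes, COL3A1 over COL5A2 averaged 0.0109 ± 0.000936 in OE and 0.0921 ± 0.00325 in EV libraries (-3.08), and COL1A1 over COL3A1 averaged 93.5 ± 9.60 and 20.2 ± 1.06 (2.205). Each of these 7 had an exact permutation p of 0.00794 (0.00992 adjusted) with no overlap.

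The remaining pairs overlapped between groups. COL6A3 over COL6A1 averaged 0.0813 ± 0.00354 in OE and 0.0869 ± 0.00291 in EV libraries, with overlap (log2 difference -0.10, exact permutation p = 0.0317, also 0.0317 adjusted). Its call was lost without OE3 (exact permutation adjusted p = 0.0556) or OE5 (0.0556), and without EV1, EV3 or EV5 (0.0635 each). COL8A1 over COL8A2 averaged 0.629 ± 0.166 and 0.971 ± 0.193 in OE and EV libraries (-0.65, exact permutation p = 0.0238, 0.0265 adjusted), and was lost without EV3 (0.0529).

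**Figure D4:**
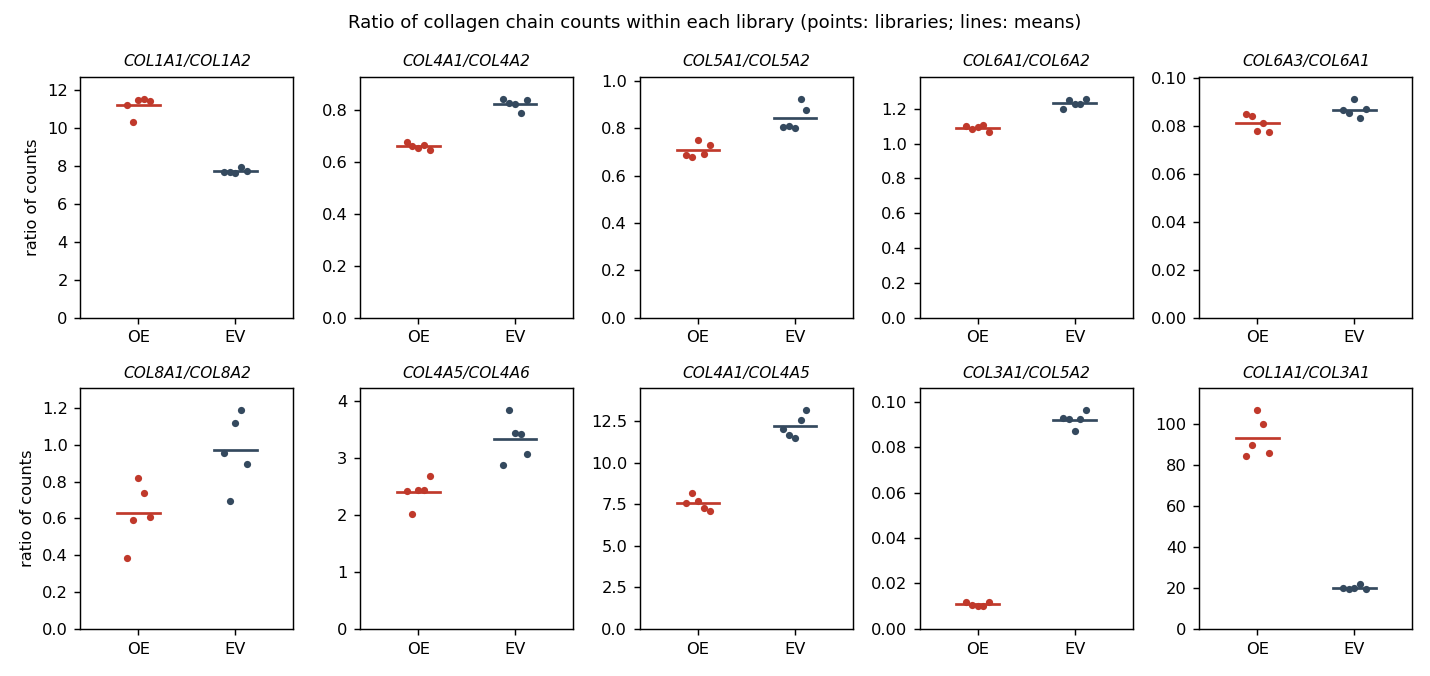
Ratio of the counts of collagen chains in each library for the 10 pairs, with OE points left of EV points and lines at the means. COL1A1/COL1A2 and COL1A1/COL3A1 are higher in OE libraries, the other 8 means are lower, and COL6A3/COL6A1 and COL8A1/COL8A2 overlap.

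Ordered by CPM per kb of exon, the top of the family was COL6A1 at 389 in OE and 521 in EV cells, followed by COL6A2 at 354 and 419. COL1A1 came next in EV cells and stood behind COL5A2 in OE cells, with 84.4 for COL1A1 and 109.9 for COL5A2 in OE cells, and 239 and 169 in EV cells. COL3A1 moved farthest down the order, with 1.31 per kb in OE cells, between COL17A1 and COL16A1, and 17.1 per kb in EV cells, where it overlapped COL5A3. COL13A1 stood at 3.14 per kb in OE cells, overlapping COL5A3 at 3.03, and at 1.45 per kb in EV cells, well under COL5A3 at 15.9. Among chains over 15 per kb, neighbours that overlapped were COL4A1 with COL12A1 in OE cells, and in EV cells COL4A1 with COL4A2, COL4A2 with COL18A1, COL3A1 with COL5A3 and COL5A3 with COL7A1. Exon length here is the union over all annotated transcripts, so levels between genes are rough.

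Genes that build, shape and remove collagen were counted in 7 lists, to be read against the 28.6% of all genes called higher and 27.5% called lower. Over the lists together, 143 genes were listed and 122 were in the table. Of these 122, 35 were higher (28.7%), close to that background, and 61 were lower (50%). The background of falls depends on level. Of all genes with a mean of at least 50 CPM, 38.1% were called lower, and of those under 50 CPM, 21.0%. The lists were not split by level. Hydroxylases and glycosyltransferases, which modify prolines and lysines of the chain, had 4 members that rose (26.7%, near the background) and 7 that fell (46.7%) of 15. PLOD2, the lysyl hydroxylase of fibril crosslinks, fell to 527 CPM in OE, against 666 CPM in EV cells (log2 fold change -0.34, adjusted p = 1e-11), and P3H1, P3H3 and PPIB, of the prolyl 3-hydroxylase family and its partner cyclophilin B, changed by -0.27, -0.28 and -0.26 on the same scale. P4HA2, a prolyl 4-hydroxylase subunit, rose to 275 CPM in OE, against 199.98 CPM in EV cells (log2 fold change 0.46, adjusted p = 4.17e-15), and the glycosyltransferase COLGALT2 rose by 0.94, at a low 1.76 CPM in OE and 0.909 CPM in EV cells. Folding and export genes had 3 that rose (17.6%) and 10 that fell (58.8%) of 17. SPARC, a collagen-binding matrix protein, was at 960.5 ± 17.9 CPM in OE and 2132 ± 46.9 CPM in EV cells (log2 fold change -1.15, adjusted p = 1.1e-32). SERPINH1, the collagen chaperone HSP47, was at 143 and 185 CPM in OE and EV cells (-0.37, adjusted p = 1.74e-11). The COPII coat genes SEC23A and SEC13 changed by -0.43 and -0.40, the ubiquitin ligase scaffold CUL3 by -0.59 and CREB3L1, a transcription factor that drives procollagen genes, by -0.63. The 3 that rose, chosen after their values were seen, were MIA2, TRAPPC2 and FKBP10. Their log2 fold changes were 0.35 (adjusted p = 1.75e-07), 0.34 (0.000659) and 0.19 (0.00013).

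Processing and crosslinking genes had 2 that rose (15.4%) and 8 that fell (61.5%) of the 13 in the table, from 17 listed. TLL2, MEP1A, MEP1B and LOXL4 were not analysed here. BMP1, the protease that trims procollagen ends, was at 76.0 and 113 CPM in OE and EV cells (log2 fold change -0.58, adjusted p = 6.05e-16), and its relative TLL1 at 3.78 and 10.9 CPM (-1.53). The N-end proteases ADAMTS14 and ADAMTS3 changed by -1.17 and -1.01, the enhancer PCOLCE by -0.60 and the lysyl oxidase LOXL2 by -0.47. LOX and LOXL1, chosen after their values were seen, rose to 26.0 and 55.8 CPM in OE cells, against 22.3 and 49.9 CPM in EV cells (log2 0.22, adjusted p = 0.00581, and 0.16, adjusted p = 0.00468). Binding partners of collagen had 1 that rose (10%) and 7 that fell (70%) of the 10 in the table, from 20 listed. DCN, LUM, FMOD, ASPN, OGN, PRELP, KERA, COMP, VWA1 and DPT were not analysed here. The proteoglycan BGN fell to 20.3 ± 1.72 CPM in OE, against 86.9 ± 3.24 CPM in EV cells (-2.10, adjusted p = 4.93e-30), the fibronectin gene FN1 to 2287 CPM, against 5185 CPM (-1.18), and the basement membrane linker NID1 to 227 CPM, against 428 CPM. THBS1, MATN2 and NID2 changed by -0.64, -0.60 and -0.57. HSPG2, encoding perlecan and chosen after its values were seen, rose to 101 CPM in OE, against 68.7 CPM in EV cells (0.56, adjusted p = 7.87e-12).

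Receptors and uptake genes went both ways, with 6 that rose (42.9%) and 7 that fell (50%) of the 14 in the table, from 16 listed. ITGA11 and ITGA10, collagen-binding integrin chains of mesenchymal cells, fell to 3.74 and 4.41 CPM in OE cells, against 18.3 and 9.63 CPM in EV cells (log2 fold changes -2.28 and -1.13). ITGA2, the collagen receptor chain of epithelia, rose to 656 CPM in OE, against 455 CPM in EV cells (0.53). SDC4, ANTXR2 and CD44, a heparan sulfate proteoglycan, a receptor for collagen VI uptake and a hyaluronan receptor, rose by 1.30, 0.92 and 0.88. Degrading enzymes had 6 that rose (66.7%) and 2 that fell (22.2%) of the 9 in the table, from 13 listed. MMP1, MMP3, MMP8 and MMP13 were not analysed here. The 6 included CTSB, chosen after its values were seen (log2 fold change 0.07, edgeR adjusted p = 0.0403). Its call was lost without OE1, OE3, OE5, EV1, EV2, EV3 or EV5. DESeq2 called 5 of the list higher, and limma on FPKM with a mean of at least 1 called 2. The cysteine protease CTSS was at 40.6 ± 1.59 CPM in OE and 8.02 ± 0.735 CPM in EV cells (2.34, adjusted p = 1.32e-27), MMP9 at 4.90 and 1.70 CPM (1.51) and CTSK at 4.43 and 2.56 CPM (0.78). MMP10 had 138 counts in OE and 7 in EV libraries, a ratio of 19.2 (95% exact interval 9.05 to 48.5, counting error only), and its fitted log2 fold change was 4.14, or 4.96 without EV1. MMP2, a gelatinase, fell to 20.6 CPM, against 42.8 CPM (-1.05, adjusted p = 7.74e-19), and MMP16 changed by -0.77.

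Transcription and mRNA regulators of collagen genes had 13 that rose (29.5%, near the background) and 20 that fell (45.5%). These were of the 44 in the table, from 45 listed. TGFB1, the cytokine known for inducing fibrillar collagen, was at 325 ± 12.9 CPM in OE and 640.3 ± 24.2 CPM in EV cells (log2 fold change -0.98, adjusted p = 1.08e-26). SNAI1, a repressor active in epithelial-mesenchymal transition, was at 2.94 and 14.2 CPM in OE and EV cells (-2.26, adjusted p = 2.86e-20). CEBPB, KLF4, KLF6 and the tendon factor SCX rose by 1.03, 1.15, 0.72 and 0.79. List medians of the log2 fold change were -0.08 for hydroxylation, -0.19 for folding, -0.25 for processing, -0.58 for partners, -0.10 for receptors, 0.24 for degradation and -0.03 for regulators, against 0.00 for all genes. No list was tested as a set.

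**Figure D5:**
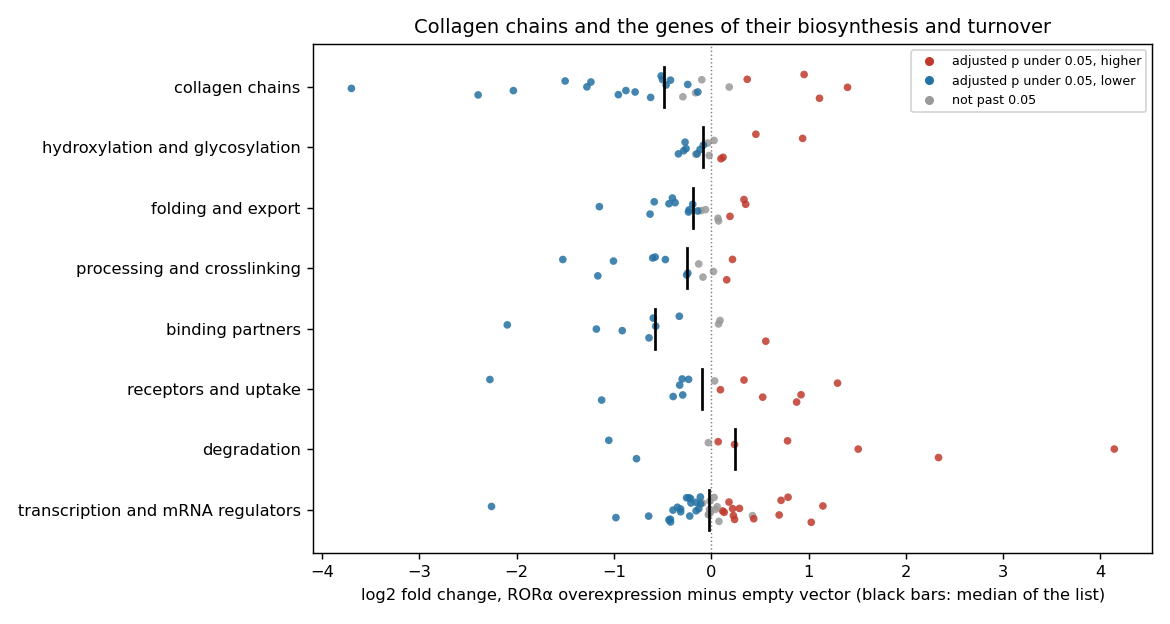
Log2 fold changes, OE minus EV, of the collagen chains and of the genes in each pathway list, with black bars at list medians. The median is -0.58 for binding partners and -0.48 for the chains, and degradation is the row with a median over 0, at 0.24.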

How the data were processed

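Poly-T selected messenger RNA from SRA01-04 cells was sequenced, per the labels' protocols. The submitters' processing notes name HISAT2 2.2.1, HTSeq and GRCh38. The annotation release was not given in the sources used here. Raw read counts and FPKM for 12540 genes were deposited by the authors, per the file headers. Deposited FPKM used a length per gene with a median ratio of 2.60 to the exon union, so it served only as an alternative. The lowest gene total was 88 counts, so a gene missing from the table is not shown to be unexpressed. IDs were matched to GENCODE 29 (12528 matched).

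The groups came from the labels, with 5 libraries each. Genes passing filterByExpr (minimum count 10, total 15) were tested by edgeR 4.0.16 (TMM factors 0.991 to 1.006, quasi-likelihood, two-sided) in R 4.3.3, with Benjamini-Hochberg adjustment over 12520 genes, and 20 genes were left out. SE is the log2 fold change divided by the square root of F, and 95% intervals of log2 fold changes are normal intervals from that SE, so they include the spread between libraries. Common biological variation was 4.57%. Class sums had no test. Chain ratios, from unscaled counts, were compared by exact permutation. The edgeR step was tested on simulated data. Named genes were all members, RORA and, from each list, up to 6 genes past the threshold by size of log2 fold change. The members, lists and tests were chosen with earlier results of these data known. Alternatives were DESeq2 1.42.0, other size factors, no filter, a replicate block, each library left out in turn, and limma 3.58.1 on log2(FPKM + 1) or log2(FPKM + 0.1). No library copied another: chi-square per degree of freedom was 2.28 to 5.74 over 20 pairs within groups. Sequences are from RefSeq (GRCh38.p14).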

Additional observations from a re-analysis of the deposited data

Results flagged for a closer look

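In 6 of 72 groups of 5 values, among them those of the chains and the chain ratios, 1 library lay far from the other 4, by a Dixon ratio over 0.71. Chance gives this in about 1 of 20 groups, and neighbouring measures share libraries. COL13A1 was 16.5 CPM in OE1, against 18.8 to 19.2 CPM in the other OE libraries. COL4A1 was 485 CPM in OE3, against 459.7 to 463 CPM in the others. COL5A2 was 798 CPM in OE5, against 822 to 829 CPM in the others. The log2 ratio of COL1A1 to COL1A2 was 3.36 in OE2, against 3.49 to 3.53 in the others. Among EV libraries, EV4 stood highest for COL1A1 at 2500.0 CPM, with the others at 2293 to 2338 CPM, and for COL1A2 at 314 CPM, with the others at 299 to 303 CPM. None of these libraries reached the range of the opposite group.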

How the results depend on the processing

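Across 18 settings, the log2 fold changes of the members gave 416 alternative values, of which 406 kept direction and side of the threshold, 6 lost the call, 4 gained it and 0 changed sign. The changes fell on COL27A1, COL4A5, COL8A2 and COL16A1. COL27A1 was also lost in limma on log2(FPKM + 1) without a filter (adjusted p = 0.0508), where COL16A1 passed (0.0366). With limma on log2(FPKM + 1) or log2(FPKM + 0.1) and a mean FPKM of at least 1, 0 members were called higher in either, against 4 in the edgeR fit: fewer genes were tested there (8445), and the rising chains were not among them. COL3A1 changed by -2.58 on the log2(FPKM + 1) scale. The labels do not say that replicate numbers pair the libraries, and same-number correlations of residuals ran from -0.07 to 0.07, so the libraries were treated as unpaired. With the replicate block, edgeR called 3543 genes higher and 3406 lower, and 4 and 16 members. A sign-flip test of the chain ratios with the replicate block passed 0 pairs, against 10 in the unpaired test, since its smallest possible p is 0.0625. Leaving out each library gave 4 members higher in each case and 15 to 18 lower, 3393 to 3571 genes higher and 3270 to 3448 lower, 32 to 35 list genes higher and 58 to 60 lower, 8 to 10 chain pairs, and a RORA log2 fold change of 1.37 to 1.51. Class sums from unscaled totals, an alternative added after seeing the data, moved by less than the spread between libraries. Depth limits COL14A1, COL11A2, COL4A4 and type VIII chains, at a few CPM or less.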

Other observations

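Collagen chains were also counted by abundance, at a split chosen after the values were seen, and no test of a difference between the abundant and the scarce ones was run. Of the 15 members with a mean of at least 50 CPM over both groups, 0 rose and 14 fell, while 29.5% of the 4784 genes at such levels rose and 38.1% fell. Of the 9 tested members under 50 CPM, 4 rose, 2 fell and 3 did not pass, while 28.0% of the 7736 genes at such levels rose and 21.0% fell. Every rising chain, COL13A1, COL17A1, COL4A4 and COL4A6, was among the scarce ones, and so were the falling COL8A1 and COL27A1. The median log2 fold change was -0.78 over the abundant members and 0.18 over the 9 scarce ones tested. The tenth scarce member, COL14A1, was below the count filter, with 9 counts over the OE libraries and 79 over the EV libraries.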
